A study of Mus musculus with 6 samples.

Results

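The spinal interneuron transcription factors described here are 36 genes, taken by symbol from a written list of factors that mark or specify dorsal and ventral interneurons of the spinal cord. All 36 have a row among the 54532 genes of the count table, and their levels were compared between WT and Dok6 mutant mice. The labels describe every library as RNA of whole sciatic nerves taken at postnatal day 3, from 3 WT control mice and 3 mice whose genotype is Dok6 KO. According to the methods, the Dok6 mutant is a conventional knockout, made by crossing mice with a floxed exon of Dok6 to EIIA-cre mice, in which Cre acts in the early fertilized egg, so that deletion is not restricted to neurons or Schwann cells. The controls are called littermates, and the methods place the mice on a C57BL/6 background. The question set by the series is whether myelination genes are altered in mutant nerves, and the interneuron factors are read out from the same libraries.

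Interneurons are neurons whose axons stay within the central nervous system. In the embryonic spinal cord, progenitors arrayed from dorsal to ventral give rise to cardinal classes of interneurons, each defined by a combination of homeodomain, paired-box, LIM, GATA and other transcription factors, which fix whether a neuron will be inhibitory or excitatory and where its axon grows. The messenger RNA of such factors is found mainly in cell bodies, and the cell bodies of spinal interneurons lie in the grey matter of the spinal cord. The sciatic nerve carries axons of motor and sensory neurons with their Schwann cells, and is not a site of interneuron cell bodies.

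The 6 libraries held between 17699904 and 18678170 counts, and 3 counts, taken as the smallest detectable level, corresponded to 0.156 to 0.172 CPM (counts scaled to a common library size with the TMM factors), a floor that covers counting error only. Dok6 itself was at 17.8, 11.9 and 17.5 CPM in WT mice 1, 2 and 3 and at 7.26, 5.78 and 7.15 CPM in Dok6 mutant mice 1, 2 and 3, with every mutant below every WT mouse. The labelled tissue was set against markers of myelinating Schwann cells. Prx, which encodes periaxin, was at 10.3, 5.45 and 3.83 CPM in the WT libraries and at 28.2, 330.3 and 18.7 CPM in the mutant libraries. Per kilobase of gene length, 28 of the 36 interneuron factors had a higher mean level than Prx in the WT libraries. Caudal Hox genes, which set position along the spinal cord and are also active in other trunk and limb tissues, were at a mean of 1 CPM or more in WT for 11 of 11 genes, and a list of forebrain transcription factors reached that level for 0 of 12 genes. In the mutant libraries 33 of the factors and 11 of 11 caudal Hox genes also had a mean of 1 CPM or more. Of the forebrain list 1 of 12 did, Lhx6, at 2.65, 0.709 and 2.12 CPM in mutant mice 1, 2 and 3. Mean Prx in the mutants was 22.5 CPM per kilobase, below only Mafa and Zic1 of the factors, at 50.4 and 36.1. It was highest in mutant mouse 2. The levels of the interneuron factors go against the label of sciatic nerve in all 6 libraries. The comparison with Prx does so in the WT libraries only. What tissue each library holds is therefore uncertain, and every comparison is between libraries as they are labelled.

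Of the 36 factors, 34 were detected in WT libraries by the rule of a mean of at least 1 CPM, and the same 34 passed the filter on low counts and were tested. Their mean WT levels ran from 1.62 CPM for Sim1 to 281 CPM for Zic1, with a median of 39.6 CPM, and 25 of them were at 10 CPM or more. In the mutant libraries 33 had a mean of at least 1 CPM, and the one that fell short was Sim1, at 0.935 CPM. Ptf1a, a basic helix-loop-helix factor that specifies inhibitory dorsal neurons in the embryo, had 0 counts in all 6 libraries. Its exons overlap an antisense gene, Ptf1aos, and how reads in such an overlap were counted is not given in the sources used here, so the count of 0 sets no upper limit on its level. Tlx1, a homeobox selector of excitatory dorsal neurons, had no count in WT mice, and its counts in the mutants were 1, 2 and 0, below the floor in every library. Tlx1 lies on chromosome 19 of GRCm38 only 75.7 kb from Lbx1, which was among the most abundant members, so 2 neighbouring genes of the list stood at opposite ends of its range.

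Ranked by mean WT CPM per kilobase of gene length, the 5 most abundant factors were Mafa at 62.9, Zic1 at 49.4, Lbx1 at 30.3, Pax2 at 22.4 and Lmx1b at 19.7 CPM per kilobase. The ranges of the WT mice did not overlap between any neighbours among these 5, but they overlapped in 24 of the 33 neighbouring pairs of the whole order, so most of the lower ranks are not separated beyond the spread between mice. Mafa and Zic1 also held the first and the second place in the mutant libraries, at 50.4 and 36.1 CPM per kilobase, and Lbx1 the third at 22.0. At the low end, Sim1, Lhx9, Wt1, Evx1 and Gata3 were each below 1 CPM per kilobase in WT. Of the 13 factors grouped here as ventral or as marking the dI6 class, 11 were at rank 22 or lower, and the other two were Sox21 and Foxp1.

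Levels of the interneuron factors were lower rather than higher in Dok6 mutant libraries wherever the genotypes could be told apart. With quasi-likelihood F tests in edgeR, adjusted by Benjamini-Hochberg over all 17099 genes, 6 of the 34 tested factors passed an adjusted p-value of 0.05 and all 6 were lower, where 6.01% of all genes tested were called lower and 14.6% were called in either direction. These factors were Pax2, Gbx1, Dmrt3, Mafa, Rora and Tfap2b, with log2 fold changes from -1.38 to -0.32. In GRCm38, Pax2 spans chr19:44756045-44837871 and Dmrt3 chr19:25610301-25623921, both on the plus strand, as are Rora at chr9:68653786-69388246 and Tfap2b at chr1:19208914-19238576. Gbx1 at chr5:24502757-24527202 and Mafa at chr15:75745490-75748228 lie on the minus strand. None of the 34 was higher, where 8.62% of all genes tested were, and 0 of the 34 had a higher level at an unadjusted p-value under 0.05 or with DESeq2. The log2 fold change was below 0 for 30 of the 34 factors, against 48.6% of all genes tested, and its median was -0.37 against 0.01 for all genes tested. The count of 30 was the same with RLE and with upper-quartile scaling. In 14 factors every mutant mouse was below every WT mouse, where 18.7% of all genes tested showed that order, and in 0 factors was every mutant above every WT mouse, where the share of all genes was 19.6%. No factor passed the fold change threshold of the study's methods, an absolute log2 fold change above 2, which 1.19% of all genes passed together with the adjusted p-value, and the largest absolute value among the 34 was 1.38, so that none reached it at an unadjusted p-value either, and DESeq2 called 0. At a threshold of 1, which 4.01% of all genes passed and 0.433% passed as lower, only Dmrt3 was called. As these are bulk libraries, fewer cells of a class and less RNA per cell cannot be told apart.

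**Figure D1:**
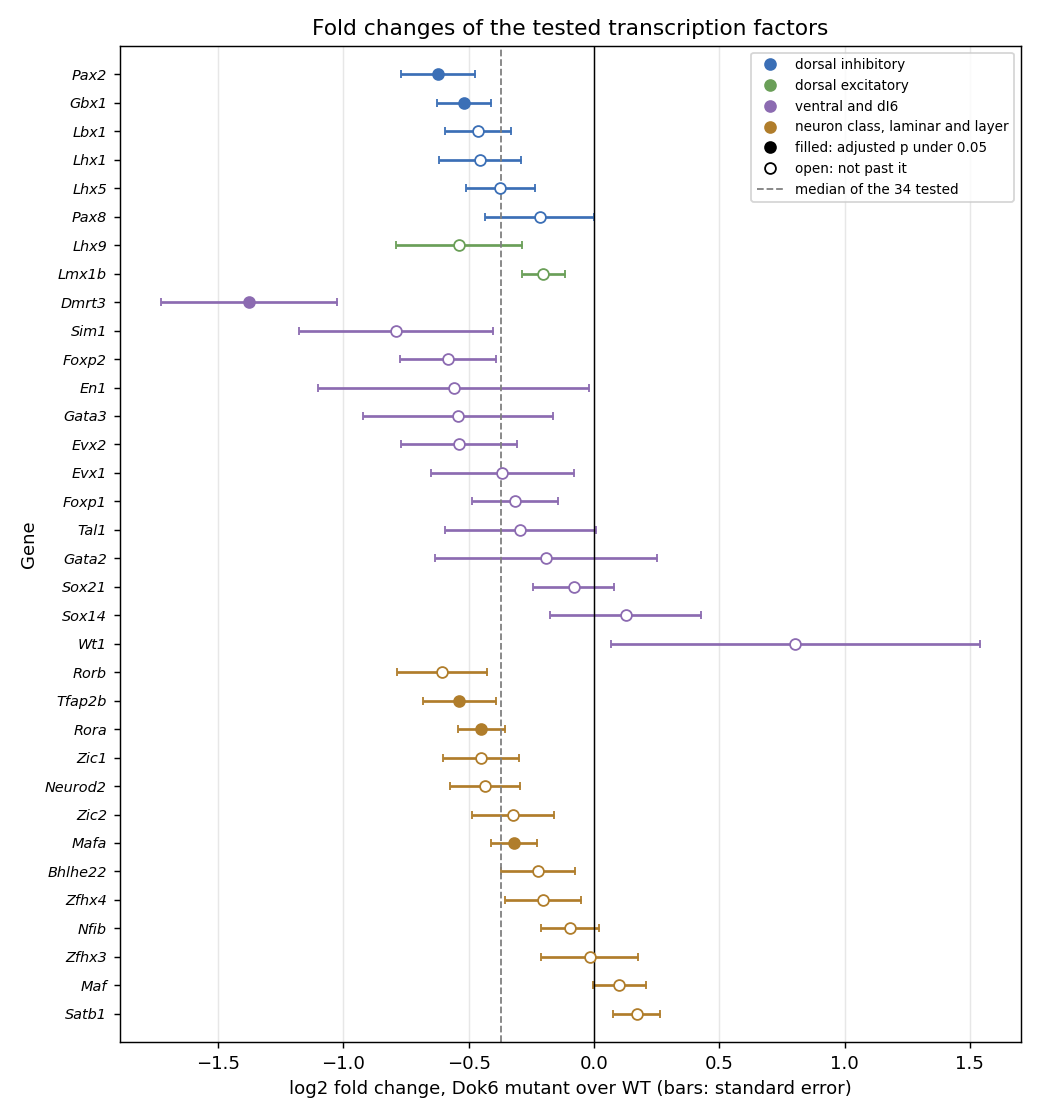
Log2 fold change of Dok6 mutant over WT with its standard error for the 34 tested factors, one row per gene and coloured by subgroup, with filled points where the edgeR-adjusted p-value was under 0.05. The 6 filled points all lie left of 0, 30 of 34 points are left of 0, and the dashed line marks the median of -0.37.

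The calls depended on single libraries. With WT mouse 2, Dok6 mutant mouse 1 or Dok6 mutant mouse 2 left out, 0 of the 34 factors passed the adjusted p-value in edgeR, while 9 were lower at an unadjusted p-value under 0.05 in each of these fits, where 10.1%, 10.9% and 11.3% of all genes were. Without WT mouse 1 only Gbx1 passed, and without WT mouse 3 Neurod2, Pax2 and Rora did. Without Dok6 mutant mouse 3, in contrast, 13 factors were called lower. The share of all genes called lower moved in the same fits, from 6.01% to 0.0682% without WT mouse 2, 1.11% without mutant mouse 1, 1% without mutant mouse 2, 3.58% without WT mouse 1, 3.53% without WT mouse 3 and 7.08% without mutant mouse 3. The number of factors with a log2 fold change below 0 stayed between 28 and 31 across the 6 fits, but their median moved from -0.37 to -0.21 without mutant mouse 2. The sign changed for 6 factors when 1 mouse was left out, Gata2, Zfhx3, Wt1, Maf, Sox14 and Sox21, none of which was called.

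In the dorsal inhibitory group, 6 of 7 factors were tested, all 6 had log2 fold changes below 0, where 48.6% of all genes had, and 2 of them, Pax2 and Gbx1, fell, where 6.01% of all genes were called lower. Pax2, a paired-box factor that maintains the inhibitory identity of dorsal horn neurons, was at 128, 125 and 110 CPM in WT mice 1, 2 and 3 and at 73.6, 64.8 and 98.2 CPM in mutant mice 1, 2 and 3. No mutant reached the lowest WT mouse, and mutant mouse 3 was the nearest to it. The means were 121 ± 9.59 against 78.8 ± 17.3 CPM (SD, n = 3 mice each), and the log2 fold change was -0.62 (SE 0.15, edgeR-adjusted p = 0.0287). Gbx1, a homeobox gene of dorsal inhibitory interneurons, was at 34.2, 42.8 and 40.7 CPM in WT and at 26.6, 28.4 and 27.2 CPM in the mutants. Its 3 mutant values lay within 2 CPM of each other and below all WT values, and its log2 fold change was -0.52 (SE 0.11, edgeR-adjusted p = 0.0216).

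Lbx1, a homeobox gene that marks the late-born dorsal interneurons of both transmitter types, was at 70.6, 82.7 and 72.2 CPM in WT and 52.5, 46.1 and 65.0 CPM in the mutants. The genotypes did not overlap, and the log2 fold change of -0.46 (SE 0.13) had an adjusted p of 0.0503 in the edgeR test, just over the threshold. Lhx1, a LIM homeodomain gene that helps to maintain inhibitory identity, was at 62.2, 66.8 and 61.8 CPM in WT and 38.6, 40.3 and 60.4 CPM in the mutants. Mutant mice 1 and 2 were well below the WT range and mutant mouse 3, without which the log2 fold change was -0.69, just under it, with a log2 fold change of -0.45 (SE 0.16, edgeR-adjusted p = 0.0925). Lhx5 and Pax8, relatives of Lhx1 and Pax2 with overlapping genotypes, had log2 fold changes of -0.37 and -0.22 and did not pass the test. Antisense genes overlap exons of both, so their values are uncertain, and that of Pax8 was -0.033 without WT mouse 3, -0.037 without mutant mouse 2 and -0.45 without mutant mouse 3.

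The promoter of Pax2 is shown because Pax2 was the more abundant of the called dorsal inhibitory factors, and because Ptf1a, the factor known to induce it in the embryo, binds as a complex to an E-box and a TC-box. A search of the windows from 250 bases before to 50 after each RefSeq gene start (GRCm38.p6) covered 25 of the 36 factors, with the letters CAGCTG for the E-box, TGGGAA for the TC-box and TAATTA for a homeodomain core, on both strands and chosen with the values of the genes known. The following 30-base stretches each hold 1 match, in capitals, at position -64 from one annotated start of Pax2 (chr19:44755676-44755705, plus strand) and at position -149 from another (chr19:44746440-44746469, plus strand).
Pax2 E-box: ggcgtgctgcgcCAGCTGcgctcgctcggg
Pax2 TC-box: gcggagtgaattTGGGAAgtcttggggaag
Among the 36 promoter windows of the factors, 16.7% held CAGCTG and 30.6% held TGGGAA, against 16.3% and 25.6% of all 32851 promoter windows. TAATTA was in 2.78% of them against 5.29% of all. The Pax2 matches lie in windows of different annotated starts, and no Pax2 window held both, so they do not form a joint site. A match is only a description of the sequence.

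The dorsal excitatory group held 3 factors, of which 2 were tested and 0 were called. Lmx1b, a LIM homeodomain gene required in excitatory dorsal horn neurons, was at 96.5, 99.4 and 92.0 CPM in WT and at 78.6, 80.4 and 91.4 CPM in the mutants. Every mutant was below every WT mouse, mutant mouse 3 by less than 1 CPM, and the log2 fold change of -0.20 (SE 0.09) did not pass the test (adjusted p = 0.137, edgeR). Lhx9, a LIM homeodomain gene of dorsal commissural neurons, was at 3.56, 3.15 and 3.77 CPM in WT and at 2.49, 1.80 and 2.91 CPM in the mutants. These low values also did not overlap, with a log2 fold change of -0.54 (SE 0.25, edgeR-adjusted p = 0.171).

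**Figure D2:**
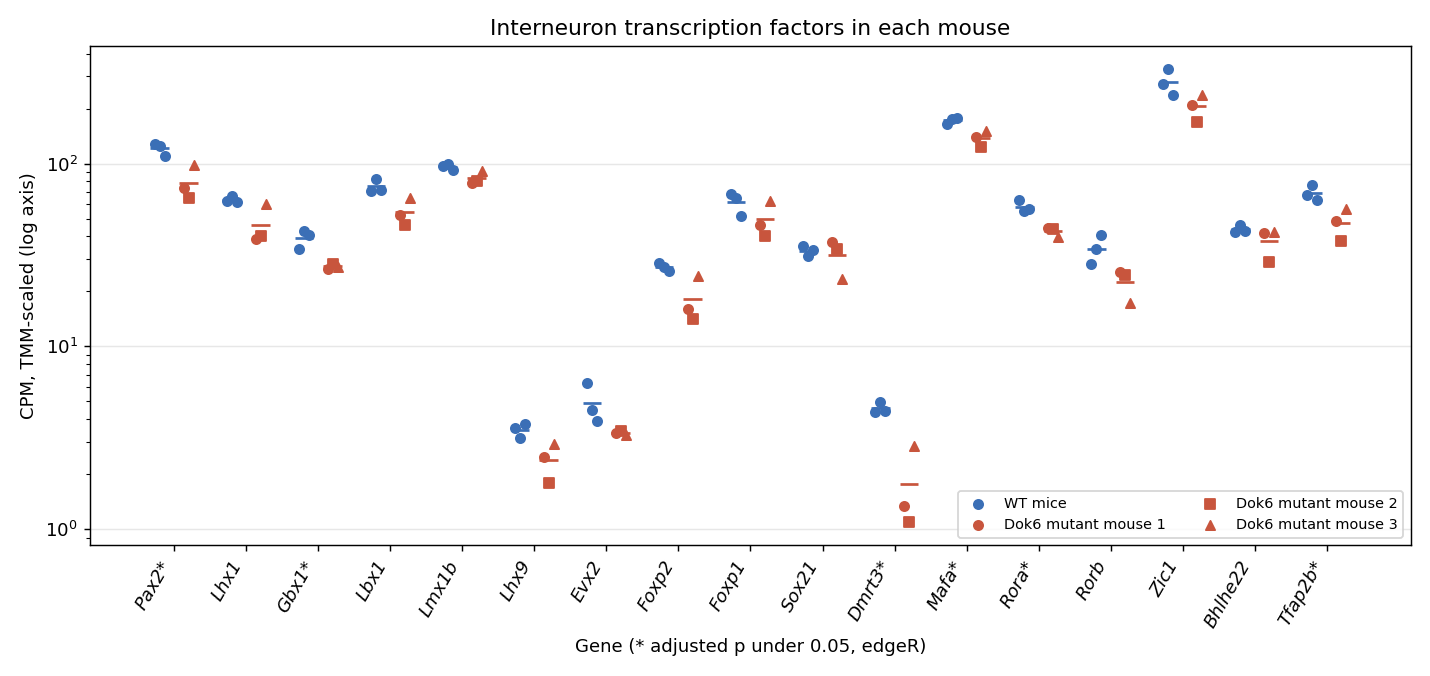
TMM-scaled CPM on a log axis of the 17 factors chosen by an adjusted p-value under 0.05, by genotypes that did not overlap or as the 2 most abundant of a subgroup, with 1 point per mouse, horizontal bars at the mean of each genotype and an asterisk for an adjusted p-value under 0.05. The 3 mutant points lie below all WT points in 14 of the factors shown, which are all of the 14 among the 34 tested (18.7% of all genes tested show that order) and were chosen for it, and Foxp1, Sox21 and Zic1 overlap.

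Of the 13 factors of ventral classes and of the dI6 class, a dorsally derived class marked by Dmrt3 and Wt1, 11 had a log2 fold change below 0 and 2 above, and 1 fell, a share near the 6.01% of all genes called lower. Dmrt3, a factor of inhibitory commissural interneurons of the locomotor network known for its part in the gaits of horses, had the largest log2 fold change of all 34 factors in either direction. It had 76, 87 and 78 counts in WT and 26, 20 and 54 counts in the mutants, or 4.36, 4.99 and 4.46 CPM against 1.35, 1.09 and 2.86 CPM. All mutants were below all WT mice, with mutant mouse 3 the nearest to the WT range, and the log2 fold change was -1.38 (SE 0.35, edgeR-adjusted p = 0.0360), or 61.5% lower. Wt1, the zinc finger factor that marks part of the same class and is also expressed in kidney and mesothelium, did not follow it. It was at 1.84, 2.75 and 2.52 CPM in WT and at 9.13, 0.600 and 2.65 CPM in the mutants, so that mutant mouse 1 was the highest and mutant mouse 2 the lowest of the 6 (log2 fold change 0.80, SE 0.74, edgeR-adjusted p = 0.475, and -0.54 without mutant mouse 1).

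Foxp2, a forkhead factor of ventral inhibitory neurons, was at 28.5, 27.3 and 25.8 CPM in WT and at 16.1, 14.1 and 24.4 CPM in the mutants. The genotypes did not overlap and the log2 fold change was -0.58 (SE 0.19, edgeR-adjusted p = 0.0748). Its relative Foxp1, which marks limb-innervating motor neurons and some interneurons, was at 67.9, 65.1 and 51.9 CPM in WT and at 46.0, 40.2 and 62.5 CPM in the mutants, where mutant mouse 3 lay inside the WT range (log2 fold change -0.31, edgeR-adjusted p = 0.234, and -0.18 without mutant mouse 2 or -0.52 without mutant mouse 3). Evx2, a homeobox gene of ventral commissural neurons, was at 6.31, 4.47 and 3.89 CPM in WT and at 3.37, 3.44 and 3.29 CPM in the mutants. The mutants were tightly grouped below the WT mice, which spread over a wider range, and the log2 fold change of -0.54 had an adjusted p of 0.143 in the edgeR test. It rested on WT mouse 1, without which it was -0.31. Sox21, an HMG-box factor of progenitors and several neural lineages, was at 35.3, 31.2 and 33.7 CPM in WT and at 37.2, 34 and 23.5 CPM in the mutants, where mutant mouse 3 was the lowest of all. Genes that share exonic sequence with Foxp1 and Sox21 make the values of both uncertain. En1, the homeobox marker of a ventral inhibitory class, was at 2.58, 3.21 and 4.52 CPM in WT and at 1.71, 0.764 and 4.50 CPM in the mutants, with mutant mouse 3 inside the WT range. Among the blood and endothelial factors that also specify a ventral inhibitory class, Gata2, Gata3 and Tal1, the log2 fold changes were -0.19, -0.54 and -0.29, with overlapping genotypes in each. They ranged with 1 mouse left out from -0.77 (mutant mouse 1) to 0.15 (mutant mouse 2) for Gata2, from -0.99 (mutant mouse 3) to -0.21 (mutant mouse 2) for Gata3, and for Tal1 from -0.60 without mutant mouse 1 to -0.0044 without mutant mouse 2. Genes on both strands overlap exons of Gata3, so its values are uncertain, and the summed level of 8 endothelial genes was 191 to 309 CPM in WT and 329 to 457 CPM in the mutants, whose part in these values was not tested. Sim1, Evx1 and Sox14, further factors of ventral classes, had log2 fold changes of -0.79, -0.37 and 0.13 at mean WT levels of 1.62 to 3.17 CPM, and none passed the edgeR test. Without mutant mouse 2 that of Evx1, whose exons an antisense gene overlaps, was -0.21, and without mutant mouse 3 that of Sox14 was -0.15.

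The remaining 13 factors are grouped here as factors of neuron class, lamina or layer. The groups are those of the written list and are not exclusive, since several of these factors are also known from dorsal inhibitory neurons, and Lbx1, kept with the inhibitory group, marks both transmitter types. Of these, 3 fell, against 6.01% of all genes called lower, and 11 had log2 fold changes below 0, against 48.6% of all genes, with Maf and Satb1 above 0. Rora, a nuclear receptor gene of dorsal horn neurons that process light touch, was at 63.1, 55.0 and 56.4 CPM in WT and 44.2, 43.6 and 39.8 CPM in the mutants. The mutants were clear of the WT range by more than 10 CPM, and the log2 fold change was -0.45 (SE 0.09, edgeR-adjusted p = 0.0214). An antisense gene overlaps exons of Rora, and the labels and the methods name different library kits, so reads of either strand may be included. Rorb, its relative in dorsal horn inhibitory neurons, was at 28.2, 34.2 and 40.5 CPM in WT and at 25.5, 24.7 and 17.3 CPM in the mutants. The groups did not overlap, the lowest mutant was mouse 3, and the log2 fold change of -0.61 (SE 0.18) had an adjusted p of 0.0553 in edgeR.

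Tfap2b, an AP-2 family gene of dorsal inhibitory neurons, was at 67.0, 76.0 and 63.6 CPM in WT and at 48.5, 37.7 and 56.2 CPM in the mutants. No mutant reached the WT range, and the log2 fold change was -0.54 (SE 0.15, edgeR-adjusted p = 0.0429). Mafa, a leucine zipper factor found in deep dorsal horn neurons and in mechanosensory neurons of the dorsal root ganglia (DRG), was at 164, 175 and 177 CPM in WT and at 140, 123 and 151 CPM in the mutants. The groups were separate with a small log2 fold change of -0.32 (SE 0.09, edgeR-adjusted p = 0.0492), and this call was lost with upper-quartile scaling, with limma voom and with a minimum of 10 counts in every library. Zic1, a zinc finger gene of dorsal neural tube derivatives and the most abundant of the factors by CPM, was at 274, 331 and 238 CPM in WT and at 209, 169 and 239 CPM in the mutants. Mutant mouse 3 was level with WT mouse 3, and the log2 fold change of -0.45 (adjusted p = 0.0779, edgeR) did not pass. An exon of Zic1 overlaps its antisense neighbour Zic4, which had a log2 fold change of 0.10 (adjusted p = 0.700, edgeR). Bhlhe22, a helix-loop-helix repressor needed for a set of inhibitory dorsal horn neurons, was at 42.5, 46.1 and 43.0 CPM in WT and 41.8, 28.8 and 42.2 CPM in the mutants. Only mutant mouse 2 stood clear of the others, although the order of the groups was complete (log2 fold change -0.22, edgeR-adjusted p = 0.325, and -0.06 without that mouse). Maf, a relative of Mafa, was at a mean of 102 CPM in WT and 109 CPM in the mutants, and Satb1, a chromatin organizer, at 86.9 and 97.8 CPM, with overlapping genotypes in both and with overlapping genes at both loci. Nfib, Zfhx3, Zfhx4, Neurod2 and Zic2, which mark broad neuron classes, had log2 fold changes from -0.43 for Neurod2 to -0.02 for Zfhx3, and none passed the edgeR test, while Neurod2 was called lower by DESeq2, with no filter on low counts, without WT mouse 3 and without mutant mouse 3.

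The 3 mutant mice differed among themselves in the same order for most of the factors. Among the mutants, 24 of the 34 tested factors were lowest in mouse 2, and 23 were highest in mouse 3. Relative to the mean of the WT mice, the median log2 ratio over the 34 factors was -0.40 in mutant mouse 1, -0.64 in mutant mouse 2 and -0.17 in mutant mouse 3, while the WT mice themselves were at 0.04, 0.07 and -0.06. The number of factors below every WT mouse was 25 in mutant mouse 1, 30 in mutant mouse 2 and 16 in mutant mouse 3. Mouse 3 was instead the lowest mutant for 6 factors, Evx2, Sox21, Nfib, Rora, Rorb and Satb1. The 34 factors share their libraries, so these counts describe 3 mice and not 34 independent observations.

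**Figure D3:**
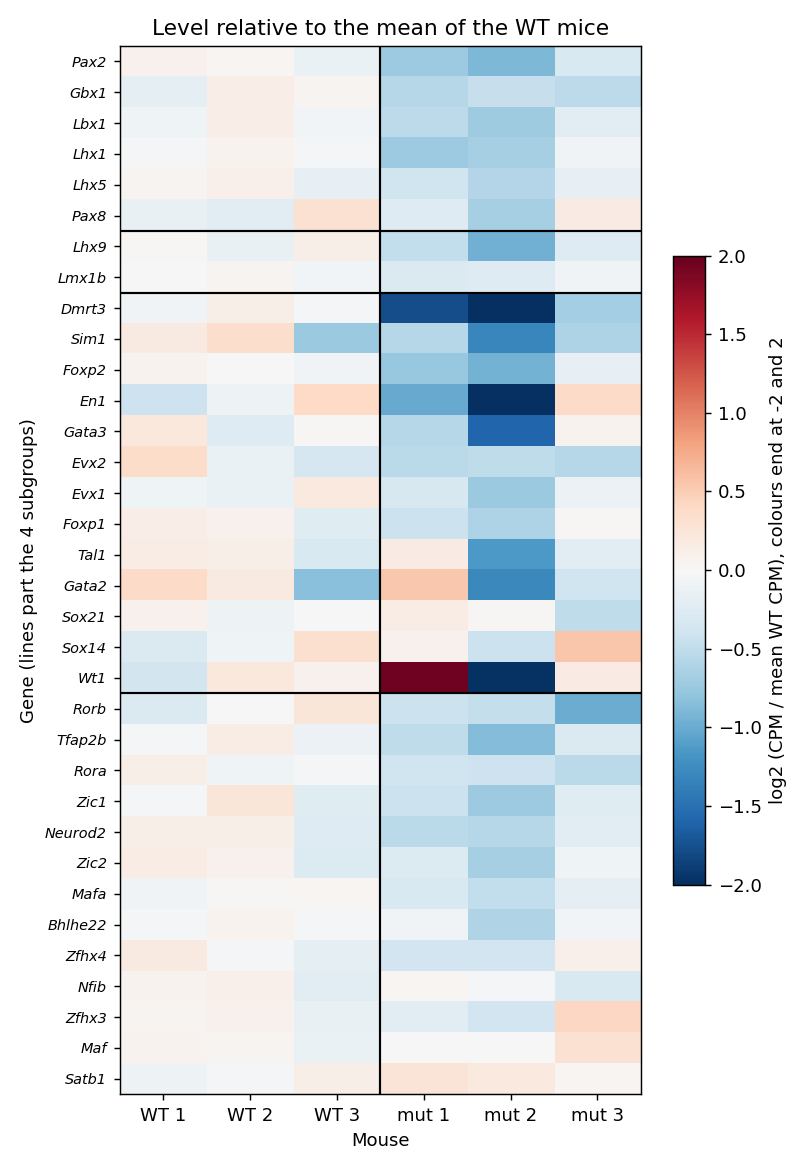
Log2 ratio of the CPM in each mouse to the mean of the WT mice for the 34 tested factors, as colours that end at -2 and 2, with genes in rows by subgroup and mice in columns. The column of mutant mouse 2 is the bluest (median -0.64), that of mutant mouse 3 is the palest of the mutants (median -0.17), and Wt1 in mutant mouse 1 is the deepest red.

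Summed over the 36 genes, the factors were at 1831, 1921 and 1695 CPM in WT mice 1, 2 and 3 and at 1493, 1321 and 1639 CPM in mutant mice 1, 2 and 3, or 1816 ± 114 against 1484 ± 160 CPM (SD, n = 3 mice each). Genes of neurons in general were read beside them. A list of 10 pan-neuronal genes summed to 8224, 8278 and 8980 CPM in WT and to 6938, 7584 and 8299 CPM in the mutants, with overlap of the genotypes. Of these 10 genes, edgeR called 0, DESeq2 called 1 lower and 1 higher, and at an unadjusted p-value under 0.05 in edgeR 2 were lower and 1 was higher. As a percentage of the pan-neuronal sum, the factors were at 22.3, 23.2 and 18.9% in WT and at 21.5, 17.4 and 19.8% in the mutants, and these percentages overlapped.

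Several markers of other cell types, among them Schwann cells and fibroblasts of the labelled nerve, were called higher in the mutants. Of all genes tested, 8.62% were called higher. A list of 13 genes of DRG neurons with a row summed to 318 to 353 CPM in WT and to 485, 920 and 887 CPM in mutant mice 1, 2 and 3, with 9 of 13 called higher. Of 12 Schwann cell genes, 6 were called higher, and the sum ranged from 198 to 859 CPM in WT and was 719, 2610.3 and 485 CPM in the mutants, so that mutant mice 1 and 3 lay inside the WT range. Skeletal muscle genes summed to 19.8 to 28.4 CPM in WT and to 650, 344 and 124 CPM in the mutants, with 8 of 9 tested genes called higher, although the defining regulators Myod1 and Myog were at most 1.2 and 0.818 CPM in any library. Nerve fibroblast genes summed to 595 to 1367 CPM in WT and to 2139 to 3301 CPM in the mutants, with 3 of 8 called higher. The part of these lists in the lower levels of the interneuron factors was not tested.

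**Figure D4:**
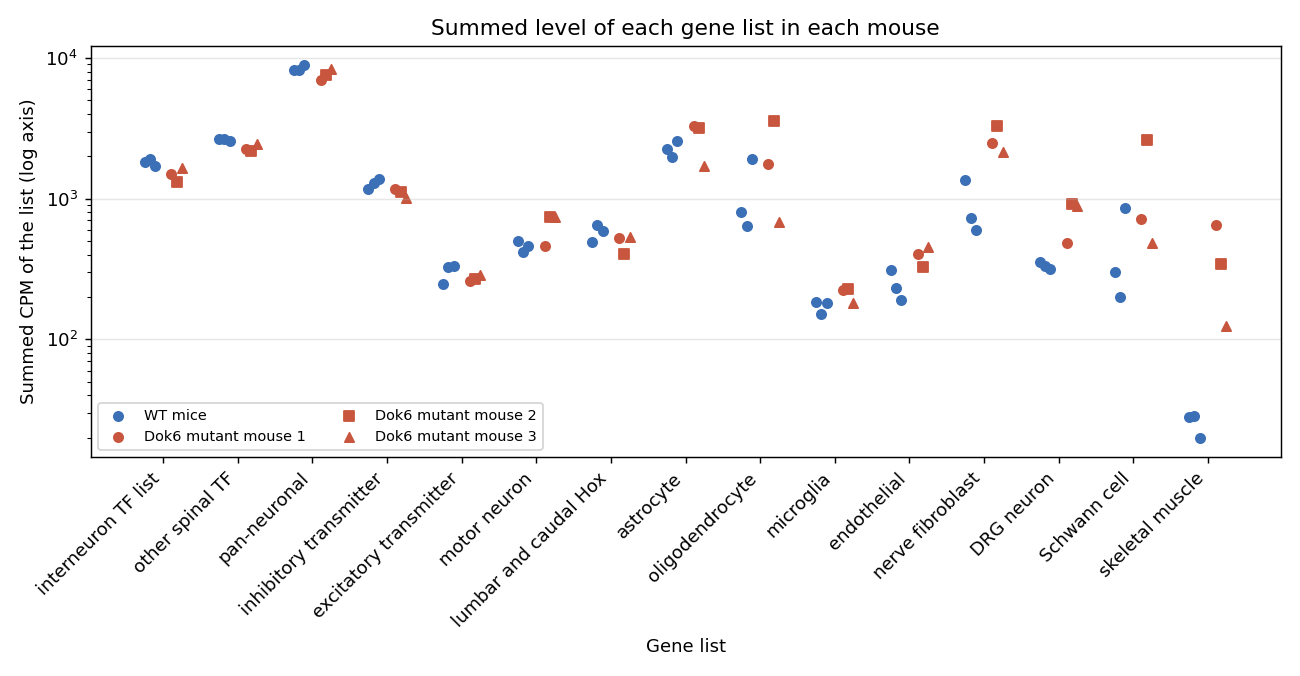
Summed TMM-scaled CPM on a log axis of each gene list in each mouse, blue for WT and red for Dok6 mutant, with a symbol for each mutant mouse. The interneuron factors lie between 1321 and 1921 CPM in all 6 libraries, whereas the skeletal muscle list is at most 28.4 CPM in WT and at least 124 CPM in the mutants.

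A further list of 65 transcription factors of spinal interneurons and their progenitors, none of them among the 36, gave 58 tested genes. By edgeR, 5 of the 58 were called lower and 1 higher, where 6.01% of all genes tested were called lower and 14.6% in either direction, so these counts do not set the list apart from genes at large. The log2 fold change was below 0 for 37 of the 58, against 48.6% of all genes tested, with a median of -0.16. The count of 6 calls was 2 without WT mouse 1, 1 without WT mouse 2, 3 without Dok6 mutant mouse 1 and 2 without Dok6 mutant mouse 2. Otp, a homeobox gene of inhibitory interneurons, was at 65.9, 70.9 and 57.0 CPM in WT and 29.3, 24.2 and 45.5 CPM in the mutants, or -0.97 on the log2 scale (SE 0.21, edgeR-adjusted p = 0.0242). Neurod1 and Pbx3 had log2 fold changes of -0.72 and -0.62, and those of Meis2 and Ebf3 were -0.51 and -0.45, all with complete separation of the genotypes. The exception in direction was Prdm12, at 0.459, 1.2 and 0.858 CPM in WT and 10.2, 37.4 and 32.8 CPM in the mutants (log2 fold change 4.98, SE 0.56, edgeR-adjusted p = 0.00588), a gene required for pain-sensing neurons that also stands on the DRG list. In Otp, Meis2, Pbx3 and Ebf3 the highest mutant was mouse 3, as in most of the 36 factors.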

How the data were processed

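RNA-seq libraries of 3 WT and 3 Dok6 mutant mice were analysed. The authors deposited raw counts, the whole number of reads counted per gene in each mouse, and a gene length in bases. The submitters' processing notes name mm10, and the aligner, counter, annotation and use of strand are not given in the sources used here. The labels name the NEBNext Ultra RNA kit and the methods its Directional version. Columns were matched to samples by genotype and mouse number.

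Genes were kept with filterByExpr (17099 of 54532), scaled by TMM and tested in edgeR 4.0.16 (glmQLFit, glmQLFTest, R 4.3.3) on genotype alone, with Benjamini-Hochberg adjustment over all genes tested. The standard error was derived from the F statistic. Calls needed an adjusted p-value under 0.05, and the study's threshold of 2 on the absolute log2 fold change, set there with DESeq2, was also applied. CPM were scaled by the summed counts of tested genes times the TMM factors. The biological coefficient of variation was 16.6%. Pairs of libraries differed beyond sampling noise (chi-square per degree of freedom from 9.47 to 58.3). Because 3 mice per genotype limit exact permutation to a smallest two-sided p of 0.10, no such test was used. The procedures were tested on simulated counts.

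Alternatives were DESeq2 1.42.0, limma voom 3.58.1, RLE and upper-quartile scaling, 2 other filters, a replicate block and leaving out each mouse. The 36 factors and all lists of genes were chosen with earlier results of these data known. Values for each mouse are given for factors past the adjusted p-value, for those whose genotypes did not overlap and for the 2 most abundant in each subgroup. Wt1, En1 and the members given by fold change only were added after their values were seen. Gene positions and overlaps come from GENCODE M21, and near-identical transcripts (95% identity over at least 200 bases in BLAST) were found for Pax8, Ptf1a, Foxp1, Sox21 and Maf, and for none of the called factors. One gene of the Schwann cell list is not reported here.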

Additional observations from a re-analysis of the deposited data

How the results depend on the processing

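All 6 calls were lower levels, and no alternative called a factor higher. The count of 6 factors became 12 with DESeq2 and 12 with no filter beyond 1 count, where 8.88% and 3.66% of all genes were called lower. It was 7 with RLE scaling (6.58%), 5 with upper-quartile scaling (5.89%), 5 with a minimum of 10 counts (6.19%) and 6 with limma voom (6.02%). With each mouse left out in turn it ranged from 0 to 13. The cause of these moves was not tested, and every fit that leaves out a mouse also has fewer mice. Both genotypes carry mouse numbers 1 to 3, but deviations of same-numbered mice from their genotype mean had correlations of -0.01, -0.19 and -0.27 across genes, so the numbers are not taken as pairs. With the replicate block, 0 factors were called in edgeR, 12 were lower at an unadjusted p-value under 0.05 (12.7% of all genes), and 0.76% of all genes were called lower against 6.01% without the block. For the further list of 65 factors, the count of 6 became 2 with the replicate block and ranged from 1 to 9 with each mouse left out. At the study's fold change threshold 0 factors were called under every alternative, and 1 was called with a threshold of 1. Between 28 and 31 factors had a log2 fold change below 0 in all fits, and the median stayed between -0.47 (without Dok6 mutant mouse 3) and -0.21 (without Dok6 mutant mouse 2). The number of detected factors was 33 or 34. Sox21 reversed to 0.092 without Dok6 mutant mouse 3. Sim1 and Evx1 had only 12 to 40 counts per library, and the SEs of their log2 fold changes were 0.39 and 0.29, so smaller differences were not detectable in them at this depth.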

Other observations

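Genes of transmitter use, which lie downstream of the interneuron factors, were read in the same libraries. Slc32a1, the vesicular transporter for GABA and glycine, was at 159, 177 and 181 CPM in WT mice 1, 2 and 3 and at 144, 125 and 147 CPM in mutant mice 1, 2 and 3, or -0.32 on the log2 scale (SE 0.09, edgeR-adjusted p = 0.0487). It was the only one of 5 inhibitory genes that edgeR called, where 6.01% of all genes were called lower. DESeq2 called 2, where 8.88% of all genes were called lower. Gad1, Gad2 and Slc6a5 had log2 fold changes of -0.26, -0.46 and -0.23 and did not pass. Slc17a6, the vesicular glutamate transporter of dorsal horn neurons, was at 242, 321 and 321 CPM in WT and at 248, 246 and 273 CPM in the mutants (log2 fold change -0.20, edgeR-adjusted p = 0.265). One of the 3 genes for glutamate transporters, Slc17a7, was called higher, at most 0.975 CPM in WT and 3.16 to 9.49 CPM in the mutants.

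A ratio of 2 genes within a library does not depend on the scaling. The ratio of Pax2 to Lmx1b, chosen after their values were seen, was 1.33, 1.26 and 1.2 in WT and 0.936, 0.806 and 1.07 in the mutants, so the mutants did not overlap the WT mice. The ratio of Lbx1 to Lmx1b was 0.731, 0.832 and 0.784 in WT and 0.668, 0.574 and 0.711 in the mutants, and that of Gbx1 to Lmx1b was 0.354, 0.431 and 0.443 in WT and 0.338, 0.353 and 0.297 in the mutants. In the Gbx1 ratio the lowest WT mouse and the highest mutant were nearly equal, and no test was run on these ratios.

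Glial and other lists gave the following sums. Astrocyte genes summed to 1982 to 2557 CPM in WT and 1717 to 3271 CPM in the mutants, with 0 of 8 called by edgeR or DESeq2 and 0 at an unadjusted p-value under 0.05. Oligodendrocyte genes summed to 636 to 1930 CPM in WT and 682 to 3564 CPM in the mutants, with 0 of 9 called by edgeR or DESeq2 and 1 higher at an unadjusted p-value under 0.05. Microglia genes had 1 of 9 called higher by edgeR, near the 8.62% of all genes called higher. Of 8 motor neuron genes, Isl2 and Prph were called higher and Slc18a3 lower, where 8.62% and 6.01% of all genes were. Chat, Slc5a7, Mnx1, Ache and Lhx4 were not called. Caudal Hox genes had 0 of 11 called by edgeR and 1 lower by DESeq2, where 8.88% of all genes were lower by DESeq2. At an unadjusted p-value under 0.05 in edgeR 2 were lower, as were 15.5% of all genes. Their sums were 489 to 650 CPM in WT and 405 to 530 CPM in the mutants.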
